A study of Mus musculus with 6 samples.

Results

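The genes described here are 37 named markers of macrophages: identity proteins, Fc receptors, complement C1q subunits and phagocytic receptors. They were chosen by symbol, and all 37 were found among the 27179 Entrez identifiers of the table. RNA was measured in lenses of B6/FVB mice of age P1 (postnatal day 1), with 3 libraries of the genotype Gclc KO, called KO 1 to 3, and 3 of Gclc CON, called CON 1 to 3. The product of Gclc is the catalytic part of glutamate-cysteine ligase, the enzyme that starts the synthesis of the antioxidant glutathione. Both groups share strain, age and tissue. The labels name no Cre driver, altered exon, sex or litter, do not say what alleles the CON mice carry, and do not say whether a library held the lenses of 1 animal.

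Macrophages are phagocytes that are maintained by signals through the CSF1 receptor and are specified by the transcription factor PU.1. Fc receptors bind antibody-coated particles and signal through small adaptor proteins, C1q opens the classical complement pathway, and scavenger and TAM receptors take up dying cells and debris. The lens has no vessels of its own, but in the newborn mouse the regressing hyaloid vessels that wrap it hold macrophages, which can remain on dissected lenses.

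The targeted gene was checked first. Gclc had 178.4, 283 and 172.6 normalised reads across CON 1 to 3 and 17.9, 72.1 and 58.1 across KO 1 to 3. All KO libraries lay below all CON libraries (log2 difference -1.01, SE 0.28, limma adjusted p = 0.0387). Leaving out CON 2, KO 1, KO 2 or KO 3 ended the call (highest adjusted p 0.130), and voom did not call Gclc (adjusted p = 0.0609 at the size factors and 0.124 at total reads). Libraries held from 20361430 (CON 2) to 61219009 (KO 3) reads in genes. The lens label held, since all 17 lens-defining genes had reads enough to be tested and the 16 crystallins took 59.5 to 68.4% of reads in CON and 40.5 to 47.5% in KO. A normalised read is a read scaled by its library's size factor, and means are given ± SD (n = 3 in each group). Each log2 difference is that of the KO mean from the CON mean of the deposited values, a variance-stabilised scale on which the differences of genes with few reads are shrunk. The labels do not tie the libraries to animals, and the p-values therefore describe the spread between libraries, which may be technical.

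Most of the macrophage genes rose in KO lenses. Of the 37 genes, 23 rose, none fell, 9 did not pass the test and 5 had too few reads to be tested (Itgam, Mertk, Spi1, Irf8 and Ccr2). Over all 11468 genes tested with limma, 6.91% were called higher and 4.39% lower at an adjusted p under 0.05. The median log2 difference over the 37 genes, tested or not, was 1.31, where that of all tested genes was 0.03. In 25 of the 37, every KO library lay above every CON library, which held for 16.9% of all tested genes, and in 1 (Stab1) every KO library lay below, which held for 14.1%. Of the tested genes, 9 had a CON mean under the filter on low values and entered the test only through KO, so the share called among those tested is not evidence of its own. The number that rose was 11 without CON 2, 12 without KO 1, 14 without KO 2, 19 without CON 1 or CON 3 and 23 without KO 3. With voom on recovered reads it was 17 with total reads as library size, 6 with the deposited size factors and 5 with non-crystallin reads. The 6 at the deposited size factors were C1qa, C1qb, Tyrobp, Cd68, Lyz2 and Cd300ld. Of genes in the lower direction, 1 (Stab1) had an unadjusted p under 0.05, and voom called none. In bulk RNA, more cells of a type and more RNA per cell cannot be told apart.

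**Figure D1:**
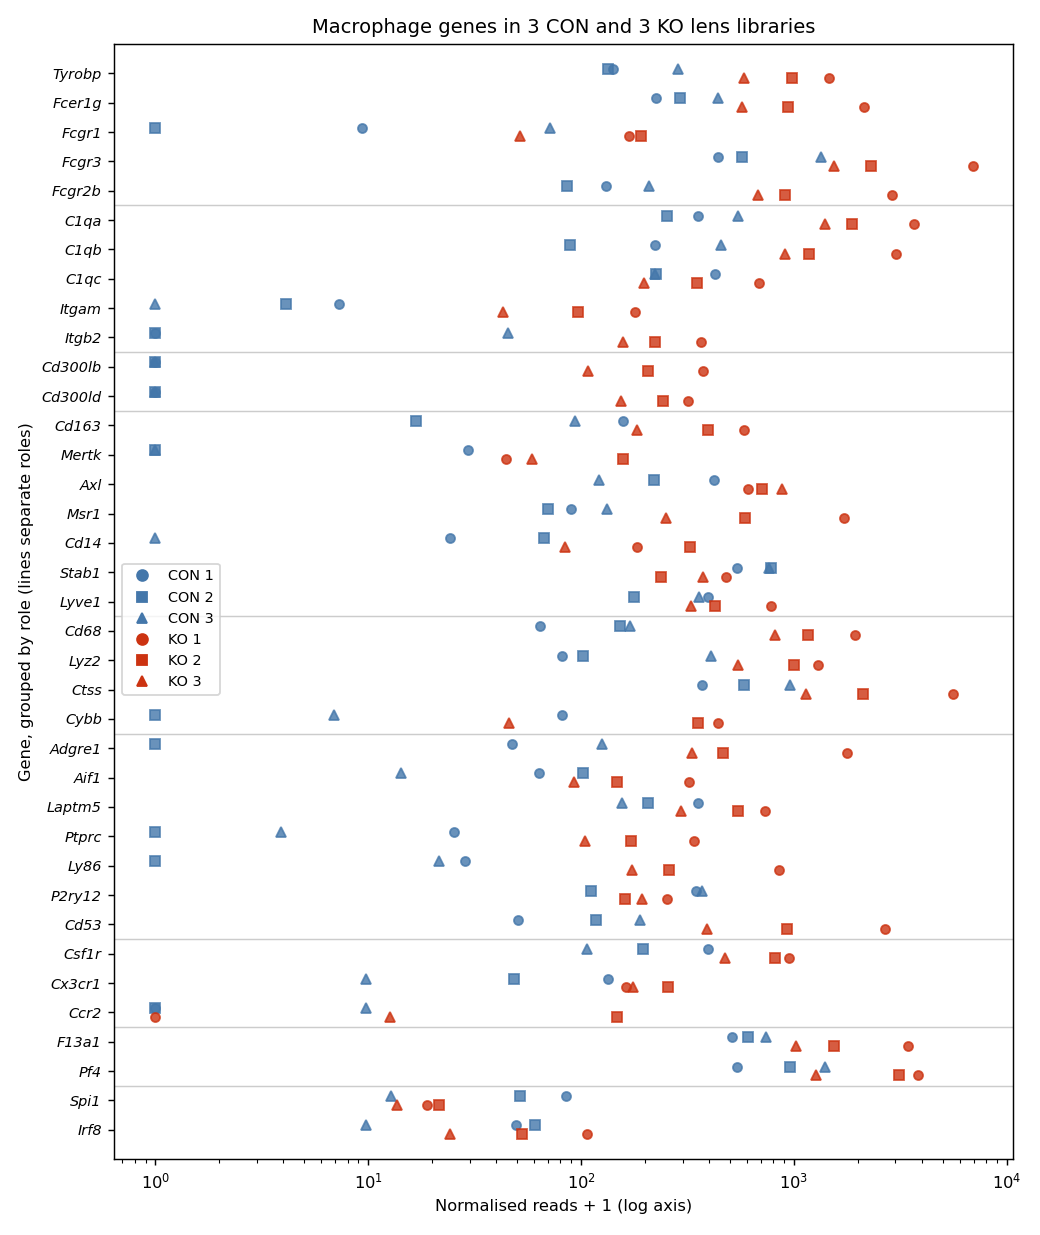
Normalised reads plus 1 (log axis) of the 37 macrophage genes in each CON (blue) and KO (red) library, grouped by role, with 1 symbol for each replicate number and points at 1 for libraries without reads. In 25 genes all red points lie right of all blue points, Stab1 shows the opposite order, and in the other 11, among them Spi1, P2ry12 and C1qc, the groups overlap.

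Fc receptors and their adaptors rose in 4 of 5 genes. Tyrobp encodes DAP12, an adaptor that carries an immunoreceptor tyrosine-based activation motif (ITAM). It had 140.4, 132 and 285 normalised reads across CON 1 to 3 and 1457, 974 and 583 across KO 1 to 3, with no overlap of the groups (log2 difference 1.75, SE 0.32, adjusted p = 0.00582). Fcer1g encodes the Fc receptor common gamma chain, the other adaptor of this kind. It stood at 224, 289.5 and 441 in CON and at 2122, 936 and 571 in KO (1.39, SE 0.37, adjusted p = 0.0346). The low-affinity activating receptor gene Fcgr3 was the most abundant receptor of the group, with 441, 569.6 and 1335 normalised reads in CON and 6903, 2302 and 1547 in KO (1.82, SE 0.47, adjusted p = 0.0290). KO 1 was the highest library for each of these 3 genes, and KO 3 was the KO library nearest to CON.

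Fcgr2b encodes the inhibitory IgG receptor, which carries an inhibitory motif in place of an ITAM adaptor. It had 129.8, 85.0 and 208 normalised reads in CON and 2898, 909 and 679 in KO, 10.6-fold in the mean (2.30, SE 0.42, adjusted p = 0.00565). The ratio of Fcgr2b to Fcgr3 reads was 0.294, 0.149 and 0.156 across CON 1 to 3 and 0.420, 0.395 and 0.439 across KO 1 to 3. The KO ratios lay close together and above all CON ratios (exact permutation test, two-sided p = 0.1, the smallest that 3 against 3 libraries can give; 0.133 after adjustment over the 8 ratios compared here, which were chosen after the values were seen). Fcgr1, the high-affinity IgG receptor gene, had 8.4, 0 and 70.8 in CON and 166, 191 and 50.7 in KO, so that KO 3 lay under CON 3, and it did not pass (1.05, SE 0.36, adjusted p = 0.0865), although it was called without CON 3 (adjusted p = 0.0290). Fcgr2b and Fcgr3 are neighbours of related sequence, so their reads may not be fully separate. The calls of Tyrobp and Fcgr2b held whichever library was left out. Fcer1g was not called without CON 1, CON 2, KO 1 or KO 2 (highest adjusted p 0.106) and Fcgr3 without CON 1, CON 2 or KO 1 (highest 0.108).

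The listed partners of Fc and ITAM signalling rose in 5 of 12 tested genes out of 22, and none fell (median log2 difference of those tested 0.78). Fcgrt, the neonatal Fc receptor gene that is also expressed outside macrophages, went from 637, 973 and 897 normalised reads across CON 1 to 3 to 4317, 2329 and 2659 across KO 1 to 3 (1.67, adjusted p = 0.00254). Clec7a, which encodes the beta-glucan receptor dectin-1, had 2.1, 0 and 140.1 in CON and 3147, 2171 and 497 in KO (3.62, SE 0.57, adjusted p = 0.00254). Clec7a entered the test only through KO, and voom did not call it (adjusted p = 0.281 at the size factors and 0.246 at total reads). The inhibitory receptor gene Lilrb4a (2.21, adjusted p = 0.0165), the kinase gene Lyn (1.29, 0.0229) and Trem2, whose product signals through DAP12 (1.27, 0.0359), also rose. Lilrb4a was not called without CON 2 (adjusted p = 0.0773), Lyn without CON 2, KO 1 or KO 2 (highest 0.136) or Trem2 without CON 1, CON 2, KO 1 or KO 2 (highest 0.127). No gene of this list was called lower by limma or voom, and 1 had an unadjusted p under 0.05 in that direction. The kinase gene Syk, which acts downstream of ITAMs, had 7.9 to 27.1 normalised reads in KO and 0 to 29.5 in CON and was not tested.

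**Figure D2:**
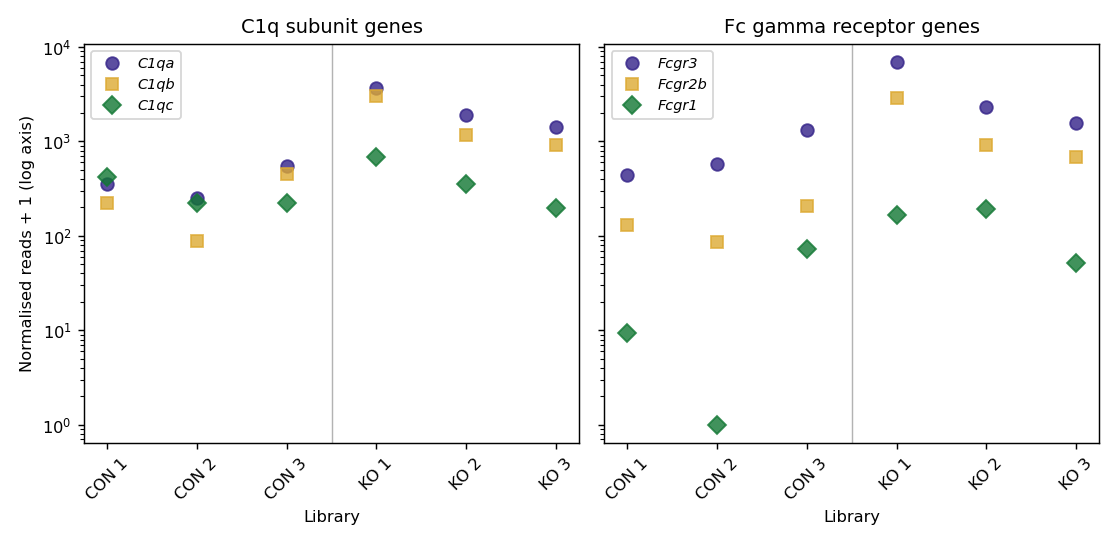
Normalised reads plus 1 (log axis) of the 3 C1q subunit genes (left) and 3 Fc gamma receptor genes (right) in each library, with a line between CON and KO. C1qa and C1qb lie well above C1qc in every KO library, which was not so in CON 1 and CON 2, and Fcgr2b lies nearer to Fcgr3 in KO than in CON.

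The complement genes split within the C1q complex. C1q is built from equal numbers of its A, B and C chains, whose genes are neighbours. C1qa had 351.5, 252 and 544 normalised reads across CON 1 to 3 and 3676, 1883 and 1402 across KO 1 to 3 (2.12, SE 0.33, adjusted p = 0.00254). C1qb had 223, 88.1 and 453 in CON and 3027, 1175 and 906 in KO (2.13, SE 0.43, adjusted p = 0.00878). Both rose 6.07- and 6.69-fold in the mean, without overlap of the groups. C1qc had 423, 223 and 221 in CON and 688, 350.5 and 196.6 in KO. Its groups overlapped, with KO 3 below every CON library, and it did not pass (0.29, SE 0.34, adjusted p = 0.644). Without KO 1 its difference was -0.05.

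Set against C1qc in the same library, C1qb stood at 0.526, 0.394 and 2.05 across CON 1 to 3 and at 4.40, 3.35 and 4.61 across KO 1 to 3. The ratio of C1qa to C1qc was 0.830, 1.13 and 2.46 in CON and 5.35, 5.37 and 7.13 in KO. Both ratios were higher in every KO library than in any CON library (exact permutation test, two-sided p = 0.1, adjusted 0.133). The ratio of C1qa to C1qb lay between 1.20 and 2.86 in CON and between 1.21 and 1.60 in KO, with overlap (exact p = 0.7). The calls of C1qa and C1qb held in each fit that left out a library.

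Itgam and Itgb2 encode the CD11b and CD18 chains of complement receptor 3. Itgb2 had 0, 0 and 44.2 normalised reads in CON and 364, 220.6 and 155.9 in KO (1.80, SE 0.34, adjusted p = 0.00661), and its call held without each library. Itgb2 entered the test only through KO. Voom did not call it at the deposited size factors (adjusted p = 0.115) but did at total reads (0.0454). Itgam was too low to be tested, with 7 reads in all over the CON libraries and 546 over KO. Its normalised reads were 6.3, 3.1 and 0 in CON and 177.4, 95.6 and 41.8 in KO, so that every KO library lay above CON. In GENCODE, 68.7% of the exon bases of Itgam are shared with a gene model on the same strand (Gm49368), which can lower its count.

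Of 26 other complement genes matched, 9 were tested, 3 rose and 1 fell. The receptor genes for the peptides C5a and C3a both rose. C5ar1 had 96.1, 40.9 and 67.8 normalised reads across CON 1 to 3 and 1056, 786 and 425 across KO 1 to 3 (2.09, SE 0.31, adjusted p = 0.00182). C3ar1 had 100.3, 56.6 and 25.1 in CON and 1644, 742 and 311 in KO (2.24, SE 0.42, adjusted p = 0.00661). Clu, which encodes the complement inhibitor and chaperone clusterin, fell by 1.12 (SE 0.19, adjusted p = 0.00423), from 21097, 23188 and 26942 to 11372, 11176 and 9745 normalised reads. Clu was called in 17 of 18 alternatives, but not with voom at total reads as library size (adjusted p = 0.14). Of the components downstream of C1q, C2 had 0, 50.4 and 0 normalised reads in CON and 147.4, 117.2 and 64.0 in KO, C3 had at most 72.1 in any library and C4b at most 1.5. None of these 3 had reads enough to be tested.

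Both CD300 genes were without reads in CON. CD300 proteins are immunoglobulin-family receptors of myeloid cells that bind lipids. Cd300lb had 371.5, 206 and 106.8 normalised reads across KO 1 to 3, from 1190 reads in all, against 0 in each CON library (2.02, SE 0.30, adjusted p = 0.00202). Cd300ld had 317, 242 and 153.8 in KO, from 1244 reads, against 0 in CON (2.11, SE 0.27, adjusted p = 0.000794). With 3 reads over the CON libraries together as the limit that a count of 0 allows, Cd300lb was at least 148-fold and Cd300ld at least 154-fold higher in KO. With 6 reads as the limit, for the case that both mates of a pair were counted, the bounds were 73.9 and 77.0. These bounds cover counting error only. The calls of both held without each library in turn. Both genes entered the test only through KO, however, and the fits that left out a library kept that filter. Voom at the deposited size factors called Cd300ld (adjusted p = 0.0304) but not Cd300lb (0.0652). Of the other CD300 genes, Cd300c2 also rose (1.48, SE 0.28, adjusted p = 0.00708), whereas Cd300a (0.97, adjusted p = 0.0675) did not pass. The CD300 genes are neighbours of related sequence.

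Phagocytic and scavenger receptors rose in 4 of 7 genes (Cd163, Axl, Msr1 and Cd14). Msr1, which encodes the class A scavenger receptor, had 88.7, 69.2 and 131.3 normalised reads across CON 1 to 3 and 1717, 586 and 249 across KO 1 to 3 (1.79, SE 0.45, adjusted p = 0.0256). Its level in KO 1 was 6.90 times that in KO 3. Cd163, the haemoglobin scavenger receptor gene, had 156, 15.7 and 92.9 in CON and 580.0, 394 and 181.3 in KO (1.26, SE 0.37, adjusted p = 0.0493). Cd14, which encodes a co-receptor for lipopolysaccharide, had 23.2, 66.1 and 0 in CON and 182.6, 325 and 83.0 in KO, with KO 2 highest (1.25, SE 0.37, adjusted p = 0.0497).

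The TAM receptor genes Axl and Mertk, whose products bind phosphatidylserine on dying cells through GAS6 and PROS1, had another order of the KO libraries. Axl had 420.1, 220.3 and 120.9 normalised reads in CON and 606, 703 and 882 in KO (1.19, SE 0.30, adjusted p = 0.0282), and it was the only one of the 37 genes with its highest KO value in KO 3. Mertk, too low to be tested, had 28.5, 0 and 0 in CON and 43.2, 155.7 and 58.1 in KO. Tyro3, the other TAM receptor gene, which is not among the 37, was also too low, with 1.1, 3.1 and 0 in CON and 53.6, 37.9 and 49.2 in KO, highest in KO 1. Axl is also made outside macrophages. The bridging protein gene Pros1 rose from 851, 519 and 889 to 2024, 2830 and 2044 normalised reads (1.43, SE 0.25, adjusted p = 0.00425), and Gas6 had 0.32 (SE 0.41, adjusted p = 0.681). The scavenger receptor gene Cd36 had 12.7, 0 and 1.5 in CON and 914, 423 and 139.5 in KO (2.42, SE 0.41, adjusted p = 0.00405). Cd36 entered the test only through KO, and voom did not call it (adjusted p = 0.272 at the size factors and 0.156 at total reads). Of the 13 tested genes of this wider list of 21, 4 rose and none fell (no gene had an unadjusted p under 0.05 in the lower direction, and voom called none lower).

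Stab1 and Lyve1 did not pass. Stab1, which encodes the endocytic receptor stabilin-1 of macrophages and sinusoidal endothelium, had 540.5, 777 and 763 normalised reads across CON 1 to 3 and 476, 236 and 372 across KO 1 to 3 (-0.73, SE 0.27, adjusted p = 0.101). It was called lower with library weights (-0.89, adjusted p = 0.0362), and with scaling to total reads its difference was -0.10. Lyve1, a hyaluronan receptor gene of lymphatic endothelium and perivascular macrophages, had 394, 176.2 and 355.5 in CON and 776, 423 and 326 in KO (0.50, SE 0.31, adjusted p = 0.346). Both genes are shared with endothelium, and of 11 tested endothelial markers out of 12 none passed by limma or voom (median -0.19; 2 had an unadjusted p under 0.05, Cdh5 and Egfl7, both lower). Cdh5, the VE-cadherin gene, had 210.1, 129.0 and 81.1 in CON and 10.9, 42.1 and 33.8 in KO (-0.88, adjusted p = 0.0691; 0.0456 without CON 3). The summed endothelial list, led by the lens gene Prox1, lay between 9970 and 15129 normalised reads in CON and between 8400 and 10162 in KO. Its part in the Stab1 and Lyve1 values was not tested. Of the 4 called receptors, Cd163 was not called without CON 2, CON 3, KO 1 or KO 2 (highest adjusted p 0.164), Axl without CON 2, CON 3, KO 1, KO 2 or KO 3 (highest 0.116), Msr1 without CON 2, KO 1 or KO 2 (highest 0.0915) and Cd14 without CON 1, CON 3, KO 1 or KO 2 (highest 0.233).

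Lysosomal and antimicrobial genes rose in 3 of 4. Cd68, which encodes a lysosomal glycoprotein of macrophages, had 63.3, 151 and 168 normalised reads across CON 1 to 3 and 1931, 1165 and 817 across KO 1 to 3. The lowest KO library was well above the highest CON library, and Cd68 rose 10.2-fold in the mean (2.37, SE 0.32, adjusted p = 0.00103), the largest difference of the 37 genes on the variance-stabilised scale but not by fold, where Ly86 (26.7) and Ptprc (22.5) were among those above it. Ctss, for the protease cathepsin S, had 367, 582 and 954 in CON and 5573, 2103 and 1144 in KO (1.75, SE 0.45, adjusted p = 0.0296). Lyz2, for lysozyme, had 80.2, 100.7 and 407 in CON and 1298, 1002 and 543 in KO (1.75, SE 0.38, adjusted p = 0.0132). Cybb, the catalytic subunit of the phagocyte NADPH oxidase, had 80.2, 0 and 5.9 in CON and 438, 352 and 44.9 in KO. KO 3 lay under CON 1, and Cybb did not pass (1.52, SE 0.46, adjusted p = 0.0568), but was called without CON 1 or KO 3 (lowest adjusted p 0.00936). Of its partner subunits, Ncf4 rose (1.69, SE 0.33, adjusted p = 0.00748), and the other 3 tested did not pass. Cd68 kept its call without each library. Ctss was not called without CON 1, CON 2, KO 1 or KO 2 (highest adjusted p 0.0944) and Lyz2 without CON 2 or KO 1 (highest 0.0600).

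Of 7 further identity genes, Adgre1, Ptprc, Cd53 and Ly86 rose. Adgre1 encodes F4/80, the classical surface marker of mouse macrophages. It had 46.4, 0 and 123.9 normalised reads across CON 1 to 3 and 1771, 465 and 329 across KO 1 to 3 (2.35, SE 0.51, adjusted p = 0.0126). Ptprc, which encodes the pan-leukocyte phosphatase CD45, had 24.3, 0 and 2.9 in CON and 339, 170.7 and 103.1 in KO (1.60, SE 0.32, adjusted p = 0.00924). The tetraspanin gene Cd53 had 49.6, 116 and 187 in CON and 2688, 931 and 390.1 in KO (2.23, SE 0.49, adjusted p = 0.0131). Ly86, whose product MD-1 pairs with the receptor CD180, had 27.4, 0 and 20.6 in CON and 852, 258.5 and 172.8 in KO (2.03, SE 0.41, adjusted p = 0.00873). None of these 4 overlapped between the groups. Adgre1 was not called without CON 2 (adjusted p = 0.0586) and neither was Cd53 (0.0506), whereas Ptprc and Ly86 kept their calls with each library left out. Voom called neither Ptprc (adjusted p = 0.205 at the size factors and 0.0872 at total reads) nor Ly86 (0.3 and 0.148). Adgre1, Ptprc and Ly86 entered the test only through KO.

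The other 3 identity genes did not pass. Aif1, which encodes the actin-binding protein IBA1, had 62.3, 100.7 and 13.3 normalised reads in CON and 321, 146.7 and 92.0 in KO (0.79, SE 0.34, adjusted p = 0.162). Laptm5, for a lysosomal membrane protein of blood cells, had 353, 205 and 154.9 in CON and 727, 544 and 293 in KO (0.78, SE 0.31, adjusted p = 0.139). In both, the lowest KO library lay under the highest CON library. P2ry12, the ADP receptor gene used as a marker of homeostatic microglia, had 346, 110.1 and 369 in CON and 253, 160.5 and 192.9 in KO (-0.21, SE 0.32, adjusted p = 0.727). All 3 KO values of P2ry12 lay within the CON range, and with scaling to total reads its difference was 0.32.

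Of the growth factor and chemokine receptors, Csf1r rose. Csf1r is the receptor for CSF1 and interleukin 34 and had 395, 195.1 and 106.2 normalised reads across CON 1 to 3 and 947, 814 and 472 across KO 1 to 3 (1.27, SE 0.33, adjusted p = 0.0308). Its call ended without CON 2, CON 3, KO 1 or KO 2 (highest adjusted p 0.119). In GENCODE, 15.1% of its exon bases are shared with Hmgxb3 on the opposite strand, and whether the counting used strand is not given in the sources used here. Cx3cr1, the fractalkine receptor gene of microglia and resident macrophages, had 133, 47.2 and 8.8 in CON and 161.3, 255.5 and 174.4 in KO. Its groups did not overlap, and it did not pass (0.92, SE 0.33, adjusted p = 0.0954), but was called without CON 1 (adjusted p = 0.0219). Ccr2, the receptor by which classical monocytes leave the blood, had 0, 0 and 8.8 in CON and 0, 146 and 11.6 in KO. It was without reads in KO 1, the library with the most reads of most other macrophage genes, and it was too low to be tested. The ligand gene Csf1 rose from 196.3, 138.5 and 70.8 to 271, 689 and 470.4 normalised reads (1.14, SE 0.32, adjusted p = 0.0387), a call that ended without CON 2, CON 3, KO 2 or KO 3 (highest 0.203). Il34, the other ligand gene, did not pass (0.39, SE 0.29, adjusted p = 0.437).

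Both secreted proteins were abundant in CON and rose. F13a1 encodes the A subunit of clotting factor XIII, made by monocytes and resident macrophages, and had 509.9, 610.5 and 739 normalised reads across CON 1 to 3 and 3439, 1537 and 1016 across KO 1 to 3 (1.31, SE 0.35, adjusted p = 0.0342). Pf4 encodes the chemokine CXCL4 of platelets and some resident macrophages. It had 536, 957 and 1400 in CON and 3831, 3118 and 1263 in KO, and it was called (1.31, SE 0.38, adjusted p = 0.0494) although KO 3 lay under CON 3. F13a1 was not called without CON 1, CON 2, CON 3, KO 1 or KO 2 (highest 0.0965), and Pf4 without CON 1, CON 2, KO 1 or KO 2 (highest 0.169). Of the 8 platelet markers listed, Pf4 among them, 3 were tested. Ppbp also rose (1.56, SE 0.38, adjusted p = 0.0228; not called without CON 2, KO 1 or KO 2, highest 0.0897), Itga2b did not pass (0.37, adjusted p = 0.468), and Gp9 and Gp6 had no reads in any library. The summed list lay between 684 and 1566 normalised reads in CON and between 1536 and 4355 in KO, most of it Pf4 itself. The part of platelets in the Pf4 value was not tested.

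Neither transcription factor of the list was tested, and neither separated the groups. Spi1, which encodes PU.1, had 84.4, 50.4 and 11.8 normalised reads across CON 1 to 3 and 17.9, 20.4 and 12.7 across KO 1 to 3, from 104 reads over CON and 89 over KO. The KO values lay within the CON range, where 23 of the 37 genes were called higher. Irf8, the interferon regulatory factor gene of monocytes and macrophages, had 48.6, 59.8 and 8.8 in CON and 105.4, 51.7 and 23.3 in KO. Of 10 other myeloid transcription factors, 3 were tested and none passed by limma or voom (1 had an unadjusted p under 0.05).

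PU.1 binds purine-rich sequences with a GAGGAA core, and promoters of the macrophage genes were searched for it. RefSeq promoter windows (GRCm38.p6, 250 bases before to 50 after the start) were matched for 28 of the 37 genes, and not for Adgre1, Csf1r, C1qa, Tyrobp, Itgb2, Msr1, Cd14, Spi1 and Lyve1. The letters GAGGAAGT occurred on either strand in 5 of the 28 (17.9%), against 3.26% of 18458 promoters of the same length, taking the first listed start of each gene. The shorter GAGGAA, which the longer motif contains, occurred in 17 of 28 (60.7%), against 27.4%. Among these 17, Fcgr1, Laptm5, C1qc, Itgam, Stab1, Aif1 and Cybb were not called higher. Of the matched genes without it, Fcgr2b, Fcer1g, Cd163, Lyz2, Cd300lb and Ly86 were called higher, and Mertk, P2ry12, Irf8, Cx3cr1 and Ccr2 were not. Whether the motif goes with the rise in KO was not tested. A match is a description of the letters and not a site of binding.

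The 5 windows with the longer motif are shown, with GAGGAAGT, or its reverse complement where the match is on the other strand, in capitals. They are Ctss (chr3:95526536-95526835 on the plus strand), Cd53 (chr3:106790100-106790399 on the minus strand), Pf4 (chr5:90772185-90772484 on the plus strand), Cd300ld (chr11:114989837-114990136 on the minus strand) and C1qc (chr4:136892865-136893164 on the minus strand), each written 5′ to 3′ along the gene. Of these genes, C1qc is the one that did not rise:
Ctss: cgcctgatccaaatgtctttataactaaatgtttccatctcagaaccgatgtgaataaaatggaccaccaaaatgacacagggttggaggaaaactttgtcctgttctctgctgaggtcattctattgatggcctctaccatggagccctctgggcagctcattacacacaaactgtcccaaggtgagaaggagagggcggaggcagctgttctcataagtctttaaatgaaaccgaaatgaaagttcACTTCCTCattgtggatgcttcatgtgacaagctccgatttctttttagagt
Cd53: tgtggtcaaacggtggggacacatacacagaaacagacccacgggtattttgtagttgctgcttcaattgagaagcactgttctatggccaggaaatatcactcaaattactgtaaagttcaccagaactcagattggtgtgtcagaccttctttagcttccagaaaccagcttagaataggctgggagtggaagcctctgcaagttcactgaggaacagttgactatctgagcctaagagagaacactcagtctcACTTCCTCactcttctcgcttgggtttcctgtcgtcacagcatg
Pf4: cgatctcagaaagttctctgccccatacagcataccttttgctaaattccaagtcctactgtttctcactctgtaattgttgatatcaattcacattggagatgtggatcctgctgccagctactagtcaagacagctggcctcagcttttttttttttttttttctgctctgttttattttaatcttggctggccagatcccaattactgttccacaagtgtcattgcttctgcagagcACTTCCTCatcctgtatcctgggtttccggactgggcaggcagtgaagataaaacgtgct
Cd300ld: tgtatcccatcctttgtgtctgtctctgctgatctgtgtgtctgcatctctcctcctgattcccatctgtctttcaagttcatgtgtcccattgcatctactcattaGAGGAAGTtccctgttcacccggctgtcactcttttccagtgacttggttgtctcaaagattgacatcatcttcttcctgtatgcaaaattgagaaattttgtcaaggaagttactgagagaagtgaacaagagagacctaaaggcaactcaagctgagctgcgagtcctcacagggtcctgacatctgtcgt
C1qc: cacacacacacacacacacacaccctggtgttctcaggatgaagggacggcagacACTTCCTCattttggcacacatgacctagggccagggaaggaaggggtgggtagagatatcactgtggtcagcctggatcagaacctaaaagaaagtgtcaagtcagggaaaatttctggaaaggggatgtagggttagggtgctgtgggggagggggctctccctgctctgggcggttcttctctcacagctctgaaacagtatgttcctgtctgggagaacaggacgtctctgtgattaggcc

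With the start site as base 1 and no base 0, the match began at -2 in Ctss, 7 in Cd53 and -10 in Pf4, thus next to the start in these 3, at -143 in Cd300ld and at -195 in C1qc. The match was on the opposite strand in 4 windows and on the gene's strand in Cd300ld.

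The macrophage genes were also listed in 3 classes. Of 23 pan-macrophage genes, 17 rose (median log2 difference over all 23, 1.75). Of 6 genes listed as infiltrating (Ccr2, Cd14, Itgam, Cybb, Lyz2 and Msr1), 3 rose (median 1.39). Of 8 resident genes (Cx3cr1, P2ry12, Mertk, Cd163, Stab1, Lyve1, F13a1 and Pf4), 3 rose (median 0.97). The order of the first 2 medians turned on other scales: it was 2.46 for pan-macrophage and 3.31 for infiltrating genes with voom at the deposited size factors, and 2.55 and 3.31 with log2 of normalised reads plus 1, where the resident medians were 1.52 and 1.49. Every one of the 10 genes that kept its call without each library was a pan-macrophage gene, but this class held 21 of the 32 genes tested. Of the 10, Itgb2, Ptprc, Ly86, Cd300lb and Cd300ld entered the test only through KO. The classes were written from general knowledge. Of the infiltrating class, Ccr2 marks classical monocytes, and the others are also made by tissue macrophages. No test compared the classes.

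Within the KO group the libraries stood apart. The summed normalised reads of the 37 genes were 6805, 6253 and 9755 across CON 1 to 3 and 51240, 25547 and 15642 across KO 1 to 3. In 30 of the 37 genes the highest KO value was in KO 1, which held for 41.7% of all tested genes, and in 31 the lowest was in KO 3, which held for 30.0%. The ratio of KO 1 to KO 3 had a median of 3.20 over the macrophage genes and 1.01 over all tested genes. It ran up to 9.76 for Cybb, 6.90 for Msr1, 6.89 for Cd53 and 5.38 for Adgre1. High ratios were not confined to the macrophage genes. Of the 12 endothelial markers, Tie1 stood at 11.1, Pecam1 at 10.8, Esam at 5.35, Flt1 at 4.85, Emcn at 4.31 and Flt4 at 4.13. Cldn5 stood at 3.46, Tek at 1.84 and Egfl7 at 1.48, but Kdr at 0.805, Prox1 at 0.562 and Cdh5 at 0.324. In the same libraries Gclc stood at 17.9, 72.1 and 58.1 normalised reads, and crystallins took 47.5, 40.5 and 46.7% of reads.

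The highest KO value was in KO 1 in 20 of 23 pan-macrophage, 4 of 6 infiltrating and 6 of 8 resident genes, and the lowest was in KO 3 in 22, 5 and 4 of them. The summed resident genes had 9560, 6279 and 3584 normalised reads across KO 1 to 3. The median difference from the CON mean across KO 1 to 3 was 2.29, 1.57 and 1.14 for pan-macrophage genes, 1.92, 1.72 and 0.72 for infiltrating genes and 0.90, 1.14 and 0.51 for resident genes. By the median KO 2 was the highest library of the resident class, whereas by the count and the sum KO 1 was. Cx3cr1, Mertk, Cd14, Fcgr1, Ccr2 and Spi1 had their highest KO value in KO 2. P2ry12 and Stab1 had their lowest there, and Cx3cr1, Mertk, Axl and Ccr2 had theirs in KO 1. The Stab1 to Csf1r ratio was 1.37, 3.98 and 7.18 across CON 1 to 3 and 0.503, 0.290 and 0.788 across KO 1 to 3, without overlap (exact permutation test, two-sided p = 0.1, adjusted 0.133). The P2ry12 to Csf1r ratio was 0.877, 0.564 and 3.47 in CON and 0.268, 0.197 and 0.409 in KO, also without overlap (exact p = 0.1, adjusted 0.133). The Lyve1 to F13a1 ratio overlapped, at 0.289 to 0.772 in CON and 0.226 to 0.321 in KO (exact p = 0.2, adjusted 0.229). The ratio of the adaptor genes Tyrobp and Fcer1g was 0.456 to 0.646 in CON and 0.686 to 1.04 in KO (exact p = 0.1, adjusted 0.133).

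**Figure D3:**
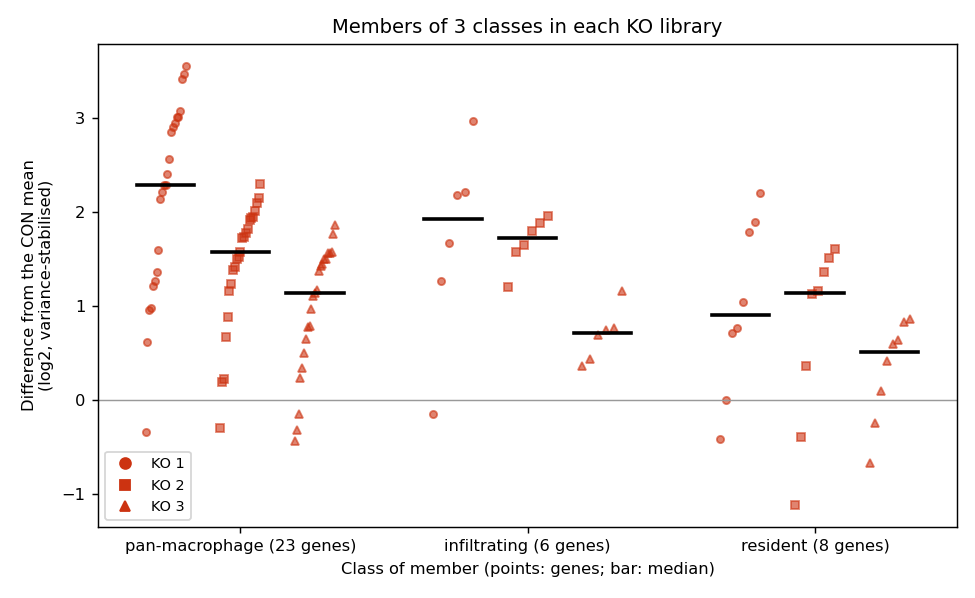
Log2 difference from the CON mean on the variance-stabilised scale for each of 23 pan-macrophage, 6 infiltrating and 8 resident genes across KO 1 to 3, with a bar at the median. The pan-macrophage medians lie at 2.29, 1.57 and 1.14, and the resident medians at 0.90, 1.14 and 0.51.

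Levels between genes were compared as normalised reads per kilobase of exon. Pf4 led in both groups, at 1337 ± 599 in CON and 3797 ± 1839 in KO. In CON it was followed by Ctss (467 ± 219), Fcgr3 (450.4 ± 278), C1qa (368 ± 143) and Fcer1g (364 ± 127.5), whose differences were within their SDs. In KO the next were C1qa (2231 ± 1152), Ctss (2165 ± 1716), Fcgr3 (2064 ± 1670) and C1qb (1565 ± 1061), again within their SDs. P2ry12 went from rank 10 in CON to rank 25 of 37 in KO, Stab1 from 15 to 31 and C1qc from 8 to 14. Cd68 moved from 12 to 8 and Adgre1 from 22 to 12. Ptprc, whose annotated exons are long, ranked 34 in both groups.

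Markers of related cells varied in the same libraries. Of 8 markers of perivascular and tissue-resident macrophages, the 3 tested (Folr2, Mrc1 and Colec12) all rose, although voom at the deposited size factors called none of them, and Cd209f, Cd209d and Vsig4 had no reads in any library. Mrc1, the mannose receptor gene, had 306, 129.0 and 276 normalised reads across CON 1 to 3 and 2581, 1373 and 432 across KO 1 to 3 (1.82, SE 0.46, adjusted p = 0.0256), and was not called without CON 2, CON 3, KO 1 or KO 2 (highest 0.104). The folate receptor gene Folr2 had 0, 15.7 and 64.9 in CON and 293, 400.4 and 199.3 in KO (1.72, SE 0.34, adjusted p = 0.00763). Colec12, a scavenger receptor gene also made by endothelium, had an adjusted p of 0.0307 and, with 1 library left out, stayed called only where that was CON 1 (highest 0.122). Of 11 microglia markers, 1 of 5 tested rose (Trem2). Tmem119, chosen after its values were seen, was too low to be tested, with 0 in each CON library and 69.1, 80.0 and 23.8 in KO. The summed microglia list lay between 6228 and 7418 in CON and between 7451 and 10406 in KO.

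Monocyte markers summed to 99 to 209 normalised reads in CON and 877 to 1222 in KO. Of the 10 listed, 2 were tested and both rose: Chil3, a chitinase-like gene also made by alternatively activated macrophages (2.38, SE 0.31, adjusted p = 0.000916), and Vcan, which mesenchyme also makes (1.75, SE 0.26, adjusted p = 0.00202). Both calls held without each library, but Chil3 entered the test only through KO. Voom did not call Chil3 at the deposited size factors (adjusted p = 0.0602) but did at total reads (0.0292). The classical monocyte gene Ly6c2 had 0 in each CON library and 36.9, 25.9 and 0 across KO 1 to 3, and Plac8 had 0 in each CON library and 13.8, 16.8 and 28.0 in KO. Ly6c1, also listed and also made by endothelium, went the other way, with 17.9, 44.1 and 87.0 in CON and 5.8, 9.6 and 1.1 in KO. These 3 genes were too low to be tested. Of 13 neutrophil markers, neither of the 2 tested passed, and Mpo and Elane had no reads. The summed neutrophil list, however, lay between 116 and 175 normalised reads in CON and between 324 and 534 in KO. S100a8 had 29.6, 9.4 and 11.8 in CON and 45.5, 218 and 79.3 in KO (0.86, adjusted p = 0.103). None of the markers of T and NK cells (2 tested of 11), mast cells (1 of 7) or pericytes and mesenchyme (4 of 10) passed by limma or voom, with 0, 0 and 2 at an unadjusted p under 0.05, and none of the dendritic cell (7) or B cell markers (7) had reads enough to be tested. Of the B cell markers, Cd79a, Ms4a1, Pax5 and Cd22 had no reads in any library. Cd79b had 21.1, 18.9 and 0 normalised reads in CON and 87.5, 33.1 and 29.6 in KO, and Blnk at most 31.0 in CON and at most 44.5 in KO, so that in both every KO library lay above CON. Of the T cell receptor complex, Cd3e had at most 5.9 normalised reads, but Cd3g had 31.7, 0 and 0 in CON and 173.4, 141.3 and 101.0 in KO, and Cd3d 0 in each CON library and 8.6, 4.8 and 9.5 in KO, all too low to be tested. Summed B cell, mast cell and T and NK cell markers were at most 122, 476 and 642 normalised reads in any library. The part of these cells in genes they share with macrophages, such as Ptprc, Itgb2 and Cd53, was not tested.

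**Figure D4:**
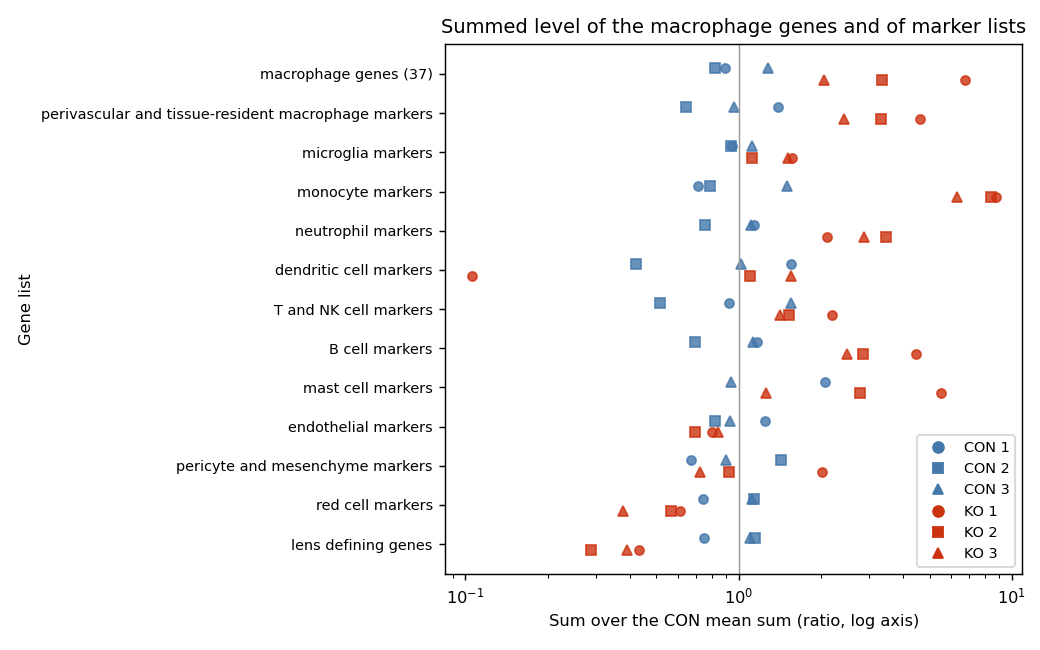
Summed normalised reads of the 37 macrophage genes and of marker lists of other cell types, divided by the mean sum of the 3 CON libraries (ratio, log axis), with CON in blue, KO in red and 1 symbol for each replicate number. The macrophage genes stand at 6.74, 3.36 and 2.06 times the CON mean across KO 1 to 3 and the lens-defining genes at 0.431, 0.287 and 0.389, and the mast cell sum of CON 2 is 0 and not drawn.

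Markers of retina and pigment cells, 2 of 9 tested genes of 12, also rose, among them Tyrp1 (0.92, adjusted p = 0.0398). Tyrp1 was not called without CON 2, KO 1 or KO 2 (highest adjusted p 0.172). Red cell markers, by contrast, summed to 4414 to 6826 in CON and 2254 to 3631 in KO, with 1 of 4 tested called lower (Hba-a2, -1.06, adjusted p = 0.0343; not called without CON 2, CON 3, KO 2 or KO 3, highest 0.154). In normalised reads, all 3 KO libraries thus held fewer of the red cell list and more of the macrophage genes than any CON library. With voom at total reads as library size, Hba-a2 was not called (adjusted p = 0.413). Scaled to total reads, the red cell sums overlapped between the groups. The part of tissue left on the lens at dissection in these values was not tested.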

How the data were processed

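RNA was sequenced from mouse lenses in 3 KO and 3 CON libraries. Per the submitters' processing notes, the authors used Trimmomatic, HISAT2 2.1.0, featureCounts 1.6.4 and DESeq2 (version given as 2.11.0.6) with build mm9, and the deposited table holds log2 values after a variance-stabilising transformation, with a lowest value of 6.504 for genes at 0 reads. Strandedness is not given in the sources used here.

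The transformation was inverted per library. 100.0% of values came within 0.1 of a whole read (largest distance 0.0175), and the size factors (0.3178 in CON 2 to 1.8920 in KO 3) equalled the median-of-ratios factors of the recovered reads. Among genes with few reads, more had 2 than 1 in each library (411 against 247 in CON 2), so both mates of some pairs may have been counted. RefSeq (GRCm38.p6) gave symbols for 25275 identifiers, and GENCODE M21 exon lengths. Since the builds differ, the only coordinates given are those of RefSeq promoter windows, with their own build.

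The groups were compared by limma 3.58.1 (R 4.3.3), whose eBayes step used the mean-variance trend, on the log2 values of 11468 genes whose mean lay at least 1 unit above the lowest value, with Benjamini-Hochberg adjustment over all of them and calls at an adjusted p under 0.05. The procedure was tested on simulated data. The 37 genes, their classes and roles, the other lists and the tests were chosen with earlier results of these data known. All 37 were to be named, and from other lists up to 3 called genes in each direction and the most abundant marker. Genes that were named beyond this (Syk, C2, C3, C4b, Tyro3, Cd300a, Gas6, Il34, Cdh5, Egfl7, Tie1, Pecam1, Esam, Kdr, Flt1, Emcn, Flt4, Cldn5, Tek, Itga2b, Tmem119, Ly6c2, Ly6c1, Plac8, S100a8, Cd79b, Blnk, Cd3e, Cd3d, Cd3g and those without reads) were chosen after their values were seen. Some genes of the other lists enter the counts and sums but are not reported here by name. Alternatives were other filters, scalings, pseudocounts (1 and 10), variance models, voom on recovered reads, a replicate block and each library left out. No molecular identifiers are mentioned in the labels, and PCR copies of one molecule may have been counted more than once.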

Additional observations from a re-analysis of the deposited data

How the results depend on the processing

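Of 568 values of single genes under 18 alternatives, 432 kept their call or lack of one, 127 lost a call, 9 gained one and none reversed with a call. The median over the macrophage genes was positive in each class under each alternative. C1qa, Tyrobp, Cd68 and Cd300ld kept their calls in every alternative that tested them. The number of macrophage genes that rose was 14 without a filter (37 tested), 7 of the 7 left by a filter of 3 units, 6 with voom at the deposited size factors and 5 with voom at non-crystallin reads as library size, an alternative added after the data were seen. The filter of 3 units is on the mean over all libraries and can keep genes through high KO values, so its 7 of 7 is not evidence of its own. The number that rose ran from 11 to 23 with 1 library left out, and each of these fits had fewer degrees of freedom. With library weights 1 fell (Stab1), and with 1 library left out none did. Of all genes tested, 6.91% were higher and 4.39% lower in the reported fit. The share higher was 6.79% with the stricter filter (340 of 5010 tested), 3.67% with voom at the size factors, 28.9% with voom at total reads and 10.6% with library weights. The share lower was 0.741% with voom at total reads, 8.14% with library weights, 2.69% with the replicate block and 2.55% with voom at non-crystallin reads. Against 793 higher and 504 lower genes reported, the split was 643 and 717 with equal library medians and 3314 and 85 with voom at total reads, which moved the median of all tested genes from 0.03 to 0.86, and voom at non-crystallin reads moved it to 0.23. With 1 library left out, 3.11 to 9.46% were higher and 1.53 to 7.48% lower. The cause of these moves was not tested.

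The class medians moved with the scale of the values, since differences on the variance-stabilised scale are shrunk. For resident, infiltrating and pan-macrophage genes they were 2.31, 4.14 and 3.29 with voom at total reads, 1.52, 3.31 and 2.46 with voom at the size factors and 1.71, 3.51 and 2.66 with voom at non-crystallin reads. They were 1.49, 3.31 and 2.55 with log2 of normalised reads plus 1 and 1.48, 2.63 and 2.39 with 10 added. On these scales the infiltrating median was above the pan-macrophage one, the reverse of the order on the deposited scale. With 1 library left out they ran from 0.76 to 1.10, 1.20 to 1.79 and 1.33 to 2.03.

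Equal replicate numbers did not pair the libraries, as residuals of KO and CON libraries of the same number correlated at -0.364, -0.128 and -0.140. With the replicate number as a block, 23 macrophage genes were higher (22 of them shared with the reported fit) and 309 genes in all lower. Among the genes named above, the block ended the calls of Gclc (adjusted p = 0.0643), Pf4 (0.0562), Csf1 (0.0564), Trem2 (0.0527), Colec12 (0.0544), Hba-a2 (0.0561) and Tyrp1 (0.0841), and Cybb was called with it (0.019). CON 2, at 20361430 reads in genes and a size factor of 0.3178, limits what can be seen of the genes that had no reads there.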
